A study of Drosophila melanogaster with 3 samples.

Results

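The genes of epidermal growth factor receptor (EGFR) signalling described here were Egfr, spi, rho, vn, aos and sty of the fruit fly, taken by name from the Ensembl annotation of Release 6 of the genome (dm6), 6 of its 13945 protein-coding genes on the 6 major chromosome arms. All 6 were found under these symbols, and the rule that names them uses no measured value. Binding was measured by chromatin immunoprecipitation sequencing (ChIP-seq) of Deadpan (Dpn), a basic helix-loop-helix repressor known from neural stem cells. The single group was a transgenic strain, dpn-GFP, whose Dpn carries a green fluorescent protein (GFP) at its C-terminus. Whole embryos aged 0 to 16 h, males and females together, gave 3 biological replicates. The labels describe the precipitation as done with an antibody to GFP, while their antibody field names dpn. There was no other strain, stage or treatment, so no difference between groups was tested. Whether the strain also makes untagged Dpn, and which cells carry the tagged protein, are not given in the sources used here, so a summit cannot be placed in a cell type.

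EGFR signalling is a receptor tyrosine kinase pathway that the fly embryo uses again and again, among others to pattern the ventral ectoderm from which neural stem cells arise. Ligands bind the receptor Egfr, which acts through the kinase cascade of Ras, Raf and the MAP kinase Rolled on the transcription factors Pointed and Aop (Yan). The ligand Spitz (spi) is made as an inactive precursor at the membrane and is released by the protease Rhomboid (rho), whereas the neuregulin-like ligand Vein (vn) is secreted directly. Argos (aos) is a secreted inhibitor and Sprouty (sty) an intracellular inhibitor, and both are known to be switched on by the pathway and to limit it.

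All 6 genes held at least 1 summit of the authors' thresholded list inside the gene. At 2 of them, spi and aos, a summit lay within 500 bp of a start site, and at spi these include the summits inside the gene. A summit is the position of highest signal within a peak. The gene and 10 kb on either side held 8 thresholded summits at spi, 5 at vn, 5 at sty, 3 at aos, 2 at Egfr and 1 at rho, 24 in all. The strongest stood at aos and spi, at ranks 177 and 222 of 6253. The weakest of the 24 was also at aos, at rank 5920. Ranks are by the authors' signal within a list, with 1 the strongest.

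The bases around the strongest summit in each gene or 10 kb around are shown first, since the signal of the peak was highest there. Those of Egfr are not shown. Whether the tagged protein itself contacts these bases was not tested. The bases shown run from 50 bp before to 50 bp after the summit, on the plus strand of dm6. Capitals mark the 1 match found to any of 6 searched words. The spi window is chr2L:19575714-19575814, and those of vn, rho, aos and sty are chr3L:5824193-5824293, chr3L:1464609-1464709, chr3L:16480527-16480627 and chr3L:3394972-3395072. The sty window lies outside the gene, with its summit 6131 bp beyond the 3′ end.
spi: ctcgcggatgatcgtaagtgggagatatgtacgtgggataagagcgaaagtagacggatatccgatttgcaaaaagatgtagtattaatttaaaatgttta
vn: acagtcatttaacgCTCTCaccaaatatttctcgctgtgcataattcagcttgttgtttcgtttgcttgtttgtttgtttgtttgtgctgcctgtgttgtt
rho: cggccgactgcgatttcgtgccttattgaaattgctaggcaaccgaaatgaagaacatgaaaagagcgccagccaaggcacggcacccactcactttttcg
aos: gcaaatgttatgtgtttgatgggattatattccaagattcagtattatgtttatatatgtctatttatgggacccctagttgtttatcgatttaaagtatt
sty: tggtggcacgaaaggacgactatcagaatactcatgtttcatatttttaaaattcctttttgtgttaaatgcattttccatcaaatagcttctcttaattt

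The words searched, on either strand, were CACGTG and CACGCG, E-box forms known as targets of Hairy-related repressors such as Dpn, the N-box CACNAG, the Dref word TATCGATA, GAGAG of the GAGA factor and CAGGTAG of Zelda. Both E-box forms, the Dref word and the Zelda word were in none of the 24 windows. Of all 6253 thresholded summit windows, CACGTG was in 0.8% and CACGCG in 1.18%, so that none in 24 does not set these genes apart. CACNAG was in 2 of the 24 windows (8.3%), beside 10.3% of all summit windows, and GAGAG was likewise in 2, beside 9.18%. TATCGATA was in 2.46% and CAGGTAG in 0.336% of all summit windows. In windows of the same width centred on the 19607 annotated starts of protein-coding genes, the shares were 1.82% for CACGTG, 3.6% for CACGCG, 13.0% for CACNAG, 4.47% for TATCGATA, 12.7% for GAGAG and 0.485% for CAGGTAG.

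Both CACNAG matches stood upstream of spi, and both lay almost on the summit. They read CTAGTG, the reverse complement of an N-box, and began 6 bp and 4 bp to the left of the summits at 19584119 and 19577598. These 2 windows are shown for that position, chosen after their words were known, as chr2L:19584069-19584169 (CG10366 side) and chr2L:19577548-19577648 (msb1l side). Each of these summits was nearer to the start of the named neighbour, at 116 bp and 103 bp, than to a start of spi.
CG10366 side: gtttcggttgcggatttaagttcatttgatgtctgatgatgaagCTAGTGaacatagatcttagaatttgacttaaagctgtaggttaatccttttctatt
msb1l side: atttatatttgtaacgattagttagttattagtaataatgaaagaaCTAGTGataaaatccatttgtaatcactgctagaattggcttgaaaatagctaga

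The 24 windows had a median GC content of 33.7%, with a range from 18.8% to 51.5%. The median of all thresholded summit windows was the same 33.7%, and that of start-site windows was 43.6%. Low GC was thus shared with thresholded summits at large.

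**Figure D1:**
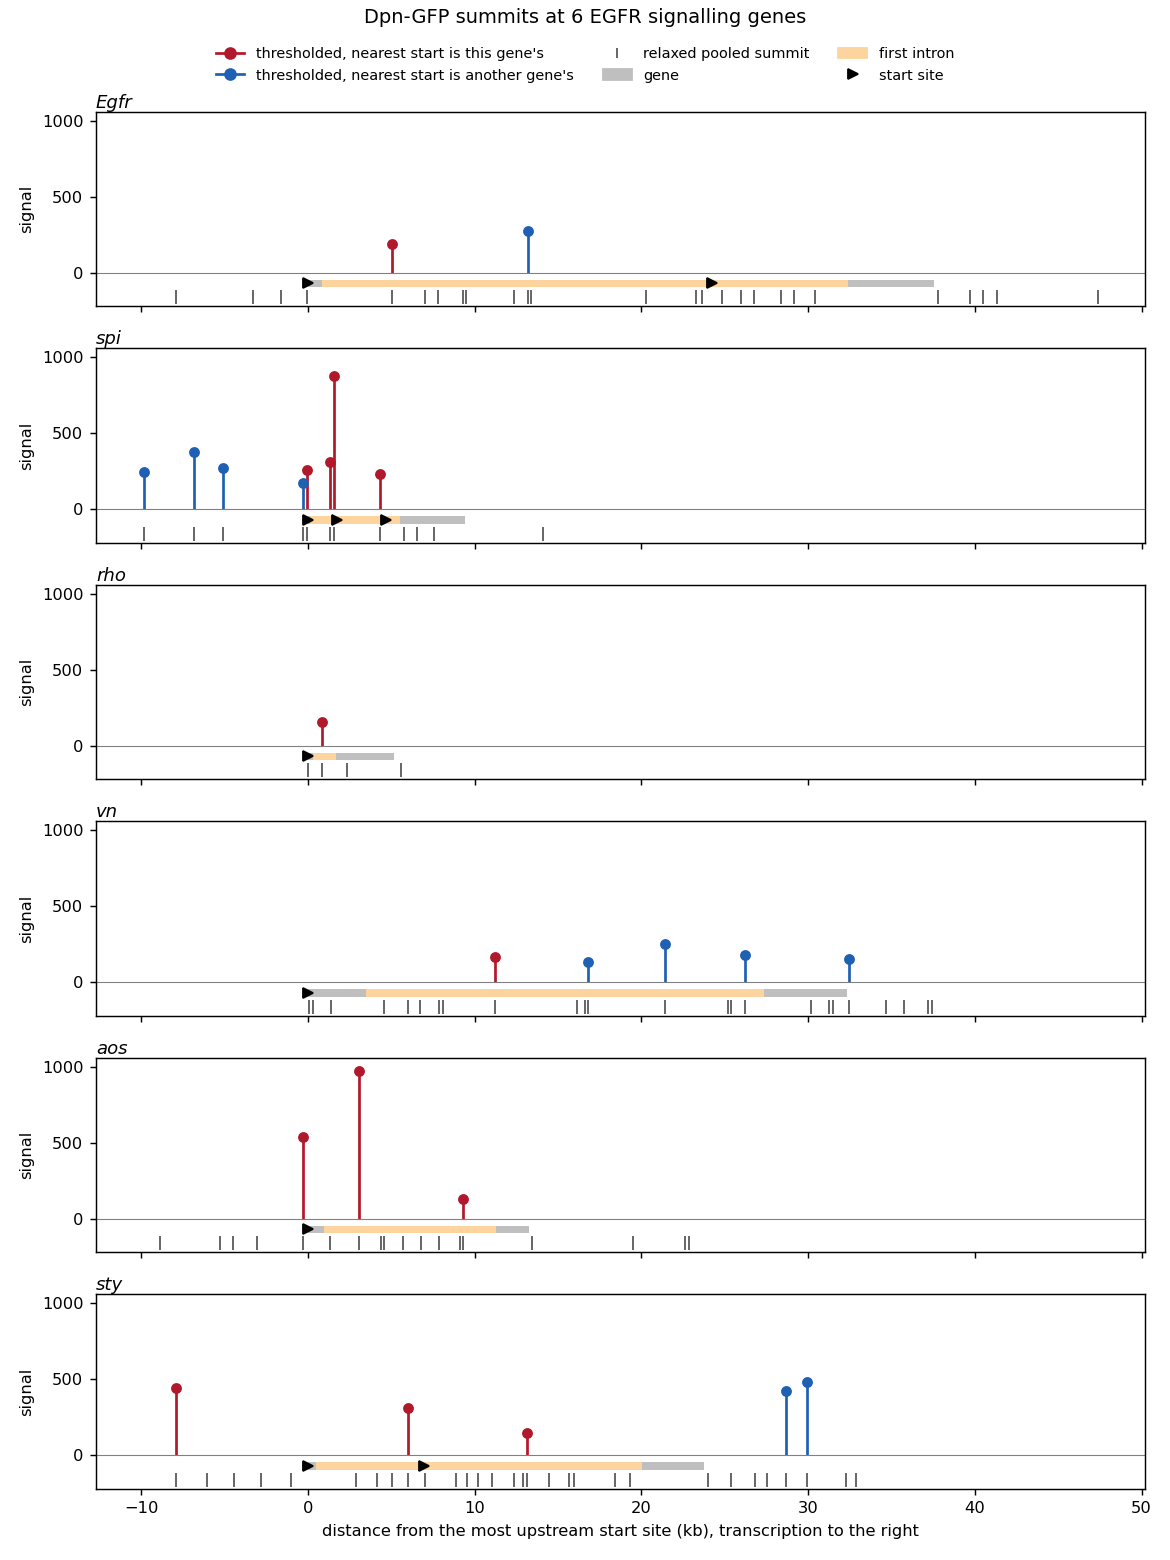
Thresholded summits at the 6 genes, as stems whose height is the authors' signal in the pooled call, against the distance in kb from the most upstream start site, with transcription to the right. Stems are red where the nearest protein-coding start is the gene's own and blue where it is another gene's. Grey bars are genes, orange bars first introns, arrowheads start sites and small ticks all summits of the relaxed pooled list. The tall stems are at spi (880.1) and aos (971), and every stem within a gene stands over the orange part.

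The gene of the ligand Spitz had summits at all of its starts. spi (FBgn0005672) lies on the minus strand of 2L from 19567900 to 19577315 and has 3 annotated start sites. Each of the 3 had a thresholded summit within 500 bp, and 5 such summits were found in all. There were 2 within 250 bp, and likewise 2 within 500 bp of the most upstream start alone. The strongest, at 19575764, lay 177 bp upstream of the second start, in the first intron of the longest transcript, with a signal of 880.1. It ranked 222 in the pooled call, 244 in replicate 1, 203 in replicate 2 and 224 in replicate 3. All 3 replicates thus placed it near the top of lists of 22475 to 30000 peaks.

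A further summit in the same deposited peak, from 19575583 to 19576011, lay at 19575965, 378 bp upstream of the same start. Its pooled rank was 1777, and the replicates ranked it 4962, 1373 and 2316. The summit at the most upstream start, at 19577369, lay 54 bp upstream of it and had a signal of 259, at pooled rank 2361 and replicate ranks 3360, 1767 and 3154. A start of the neighbour msb1l was also within 500 bp of this summit, though the spi start was the nearest. Upstream of the third start, the summit at 19572968 lay at 358 bp, with a signal of 232, pooled rank 2752 and replicate ranks 5041, 2482 and 2534. Replicate 1 gave the weakest rank of the 3 replicates at each of these spi summits. The fifth start-site summit, at 19577598, lay 283 bp upstream of spi but only 103 bp from the start of msb1l on the other side, so it cannot be given to either gene (pooled rank 4046, replicate ranks 6969, 2969 and 4620).

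The other 3 summits counted at spi stood at promoters of its upstream neighbours. They lay 69 bp from a start of Hakai, 116 bp from CG10366 and 55 bp from Lar, at pooled ranks 2188, 1254 and 2513. The density at spi, 2.72 thresholded summits per 10 kb against 0.47 over the 6 arms, therefore includes these neighbours. No thresholded summit lay in the 10 kb downstream of spi.

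The gene of the other ligand, Vein, showed summits far from its start and none near it. vn (FBgn0003984) lies on the minus strand of 3L from 5813338 to 5845664 and has 1 annotated start site. Its 4 thresholded summits inside the gene were all in the first intron, which spans 23921 bp or 74.0% of the gene, at 11201, 16828, 21421 and 26191 bp downstream of the start. Their signals were 169, 132, 253 and 179. The fifth summit lay 129 bp beyond the 3′ end and 116 bp from the start of mad2, the neighbour there.

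The vn summits differed in how closely the replicates ranked them. The one at 5834463 ranked 4818, 3426 and 4857 in replicates 1, 2 and 3, all within the first 6253, and the one at 5819473 ranked 9542, 3526 and 3599. The strongest, at 5824243 (signal 253), had the pooled rank 2428, and ranked 844 in replicate 1, 5807 in replicate 2 and 2712 in replicate 3. The one at 5828836 was at the pooled rank 5723, and ranked 17560, 6025 and 4801, so that only 2 replicates held it among their first 6253. The rank of 17560 is that of the replicate 1 peak with the nearest summit. Another replicate 1 summit within the same thresholded peak, at 5828728, ranked 7045. The summit next to mad2 ranked 2905 and 3607 in replicates 1 and 3, and replicate 2 had no overlapping peak. With 1 replicate left out, first-6253 peaks shared by the other 2 were counted. At vn these numbered 4 without replicate 1, 3 without replicate 2 and 2 without replicate 3.

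At the vn start itself only weak summits were found, all below the authors' threshold. The strongest within 500 bp ranked 14478 in the pooled list, 10783 in replicate 1 and 13012 in replicate 3, and replicate 2 had none. The 10 kb upstream of vn held no summit in the pooled list.

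The gene of the protease that releases Spitz had a single, weak thresholded summit. rho (FBgn0004635) lies on the plus strand of 3L from 1463811 to 1468944, has 1 annotated start site, and sits wholly inside Ptp61F, a phosphatase gene on the opposite strand. The summit, at 1464659, lay 848 bp downstream of the rho start in the first intron, a stretch of 1335 bp that makes up 26.0% of the gene, and had a signal of 155. It ranked 4729 in the pooled list and 2889 in replicate 2, but 10096 in replicate 1 and 6415 in replicate 3. Only 1 of the 3 replicates therefore held it among its first 6253 peaks. With any 1 replicate left out, rho had 0 first-6253 peaks shared by the other 2. That follows from these ranks and adds nothing to them.

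At the rho start itself a summit fell just outside the thresholded list. It lay 6 bp downstream of the start, at pooled rank 6832 with a signal of 113, where the list ended at rank 6253 with a signal of 122.4. Replicates 1, 2 and 3 had their start-site summits at ranks 6293, 19249 and 5028. The weakest of the 24 thresholded summits, inside aos, had a signal of 128.4.

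No thresholded or pooled summit lay in the 10 kb upstream of rho, where an enhancer known to drive it in the ventral ectoderm stands. Replicate 2 had a summit 2059 bp upstream at rank 17342 of 22475, and the best upstream summit of replicate 1 ranked 26824 of 30000. Replicate 3 had none there. Whether these weak summits overlie that enhancer was not tested.

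The receptor gene, the longest of the 6, had 2 thresholded summits, both deep in its first intron. Egfr (FBgn0003731) lies on the plus strand of 2R from 21522420 to 21559977 and has 2 annotated start sites. The first intron takes 31587 bp, or 84.1% of the gene. One summit, at 21527464, lay 5044 bp downstream of the upstream start (signal 189) and ranked 3645 in the pooled list, and 3385, 4469 and 3434 in the replicates. The other, at 21535614, lay 11029 bp upstream of the downstream start and 1181 bp from the start of CG30286, 1 of 4 genes nested in Egfr. It had a signal of 277 and ranked 2148, and 2450, 2498 and 1964 in the replicates. Both summits stood among the first 6253 peaks of every replicate, with ranks close together.

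Neither Egfr start had a thresholded summit. Within 500 bp of a start, the strongest summit ranked 12106 in the pooled list, 9422 in replicate 1 and 11363 in replicate 3, all at the upstream start. Replicate 2 had none there, and its strongest, at rank 13467, was at the downstream start. The 0.35 thresholded summits per 10 kb of Egfr and its surroundings were below the 0.47 of the 6 arms. In the relaxed pooled list, by contrast, the same stretch had 4.52 per 10 kb, where the arms had 2.24. This was not particular to Egfr: spi had 4.08, vn 4.59, aos 5.41 and sty 6.85, and rho, at 1.59, was below the arms.

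The gene of the secreted inhibitor Argos carried the strongest summit of the set. aos (FBgn0004569) lies on the minus strand of 3L from 16470386 to 16483650, has 1 annotated start site, and sits wholly inside CG33158 on the opposite strand. The strongest summit, at 16480577, lay 3073 bp downstream of the start in the first intron, with a signal of 971. It ranked 177 in the pooled list, and 177, 258 and 134 in replicates 1, 2 and 3. The summit at the promoter, at 16483938, lay 288 bp upstream of the start with a signal of 540.0, at pooled rank 621 and replicate ranks 530, 993 and 533. Both were near the top of every list.

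The third aos summit was at the weak end of the thresholded list. It lay 9306 bp into the same intron, which spans 10306 bp or 77.7% of the gene. The replicates ranked it 6684, 6585 and 6368, so none had it among its first 6253, although all 3 had a peak there. The nearest start to each of the 3 aos summits was that of aos itself.

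The gene of the intracellular inhibitor Sprouty had strong summits around it and weaker ones inside. sty (FBgn0014388) lies on the minus strand of 3L from 3401153 to 3424935 and has 2 annotated start sites. The summits at 3395022 and 3396255, with signals of 484 and 421, lay 6131 and 4898 bp beyond its 3′ end in no annotated protein-coding gene, and the nearest start, that of Ids, was 16754 and 17987 bp away. They ranked 798 and 1039 in the pooled list. A further strong summit, at 3432874 (signal 445, pooled rank 944), lay 7939 bp upstream of sty inside eIF5B, with the upstream sty start as the nearest. Across the 3 replicates these outer summits ranked between 580 and 1230.

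Inside sty, the summit at 3418948 lay 987 bp upstream of the downstream start, in the first intron of the longer transcript. It had a signal of 314 and ranked 1761 in the pooled list and 2042, 1677 and 1518 in the replicates. A weaker summit, at 3411815 (signal 149.8), ranked 4936 in the pooled list and 11898, 7099 and 4293 in the replicates, and only replicate 3 held it among its first 6253. Neither sty start had a thresholded summit within 500 bp. The strongest one there ranked 19165 in the pooled list, 10131 in replicate 1 and 14915 in replicate 3, and replicate 2 had none.

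Start sites divided the 6 genes. With spi and aos, 2 of 6 genes had a thresholded summit within 500 bp of a start, a share of 33.3% beside 27.7% of all protein-coding genes. That share is near the background, so it is no result about these genes as a group. With 1000 bp in place of 500 bp, rho and sty joined and the count was 4 of 6. With 250 bp it was 1 of 6, since the aos summit at 288 bp dropped out. The share of all protein-coding genes was not counted at 1000 bp or 250 bp, so the 27.7% is no background for these counts.

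In the relaxed lists a summit near a start was common, here as elsewhere. All 6 genes had one within 500 bp in the pooled list, where 54.2% of protein-coding genes did. All 6 had one in replicate 1 (56.0% of protein-coding genes) and in replicate 3 (55.4%), and 4 of 6 in replicate 2 (43.3%), where vn and sty lacked one. The ranks of these summits separated spi and aos, between 203 and 993 in the 3 replicates, from the other genes, between 5028 and 19249.

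**Figure D2:**
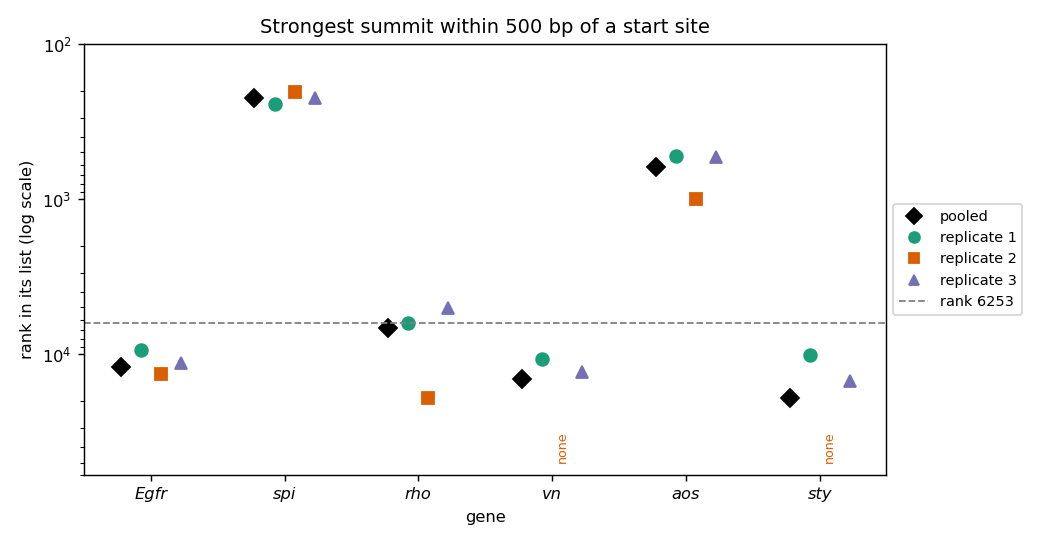
Rank of the strongest summit within 500 bp of any start site of each gene, on a log scale with the strongest at the top, in the pooled list and the 3 replicates. The dashed line is the size of the thresholded list, 6253. The spi and aos points lie far above the line in all lists, rho lies near it except in replicate 2, and vn and sty have none in replicate 2.

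Inside the genes the picture was more uniform. All 6 genes had a thresholded summit in the gene body, where 14.1% of protein-coding genes did. The 6 genes are long, with a median of 18524 bp against 2166 bp, and longer genes held summits more often (length classes also added after the values were seen). Among genes of 5 to 10 kb, the range of spi and rho, 25.5% had one. The share was 41.4% for 10 to 20 kb, the range of aos, and 51.8% for 20 to 40 kb, the range of Egfr, vn and sty. Within the gene or 10 kb around it, all 6 genes had a summit, as did 71.7% of protein-coding genes.

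The 14 summits inside the genes shared a place that was not used to choose the genes, a comparison added after the values were seen. All 14 lay in an intron, none in an exon, and in each case it was the first intron of the longest transcript with an intron there. The 3 inside spi also lay within 500 bp of a start, so they are start-site summits as well. The share of all gene-body summits that lie in an intron was not counted. Lying in an intron is therefore no result about these genes. Of all 2962 pairs of a thresholded summit and a protein-coding gene with that summit in an intron, 53.5% were in the first. The first intron made up between 26.0% of the gene (rho) and 84.1% (Egfr), and spi and vn gave 7 of the 14 summits, so these are not 14 separate observations. At sty it is the only intron of the longer transcript. Of the other 10 summits, 7 lay upstream and 3 downstream of the gene.

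Of the 24 summits, 13 had a start of the gene in question as the nearest protein-coding start, and 11 were nearer to that of another gene. For 5 of those 11, namely 4 upstream of spi and 1 downstream of vn, the other start was within 500 bp.

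**Figure D3:**
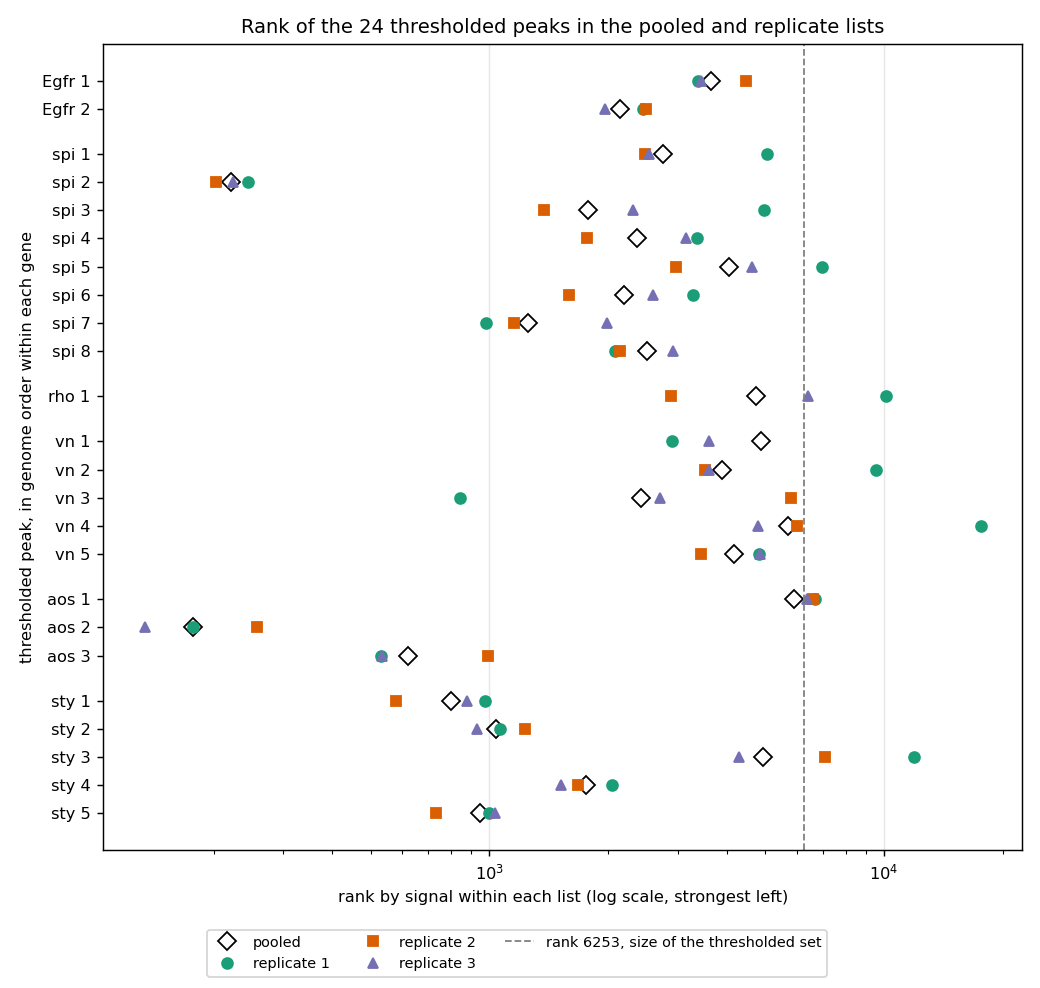
Rank of each of the 24 thresholded peaks in the pooled list (open diamonds) and in the replicate peak with the nearest summit among those that overlap it, on a log scale with the strongest to the left. Peaks are numbered by position along the arm, and vn 1 has no match in replicate 2. Points bunch together for the strong peaks of spi, aos and sty, and spread over up to 17560 for vn 4. Another replicate 1 summit within vn 4, not drawn, ranked 7045.

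Replicates agreed on most of the 24 peaks. A first-6253 peak of each of the 3 replicates overlapped 18 of them, beside 68.1% of all thresholded peaks. A further 3 were overlapped in 2 replicates, 2 in 1 replicate and 1 in none. The pooled call was made from the same replicates, so this is no independent check. All but 1 of 72 possible pairs of a thresholded peak and a replicate had an overlapping peak somewhere in the full replicate list. Of all 6253 thresholded peaks, 6212 had such an overlap in replicate 1, 6126 in replicate 2 and 6238 in replicate 3. Overlap with the full lists was thus near complete for thresholded peaks at large and does not set these genes apart.

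The summits were placed close to each other. Between the pooled call and the nearest summit of the overlapping peak, the median distance was 23 bp in replicate 1 (24 peaks), 20 bp in replicate 2 (23 peaks) and 8 bp in replicate 3 (24 peaks). The largest was 93 bp. Over all thresholded peaks the medians were 17, 18 and 7 bp, close to those at these genes. Only overlapping peaks were matched, and the pooled call was made from the same replicates. Short distances were therefore favoured in advance and are no independent check.

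Other genes of the pathway were described by the same counts. Of 22 listed genes, 12 (54.5%) had a thresholded summit within 500 bp of a start, beside the 27.7% of all protein-coding genes, and no test was made of this share or of its difference from the 2 of 6 above. The nearest start to the strongest such summit was the gene's own in all 12. Without replicate 2 the count was 7 of 22, and in the stronger part of the list, ranks up to 3126, it was 6. The 6 genes stayed at 2 of 6 in both cases, so there the order of these shares was reversed. In every other setting tried the order held, narrowly without replicate 3, at 8 of 22 beside 2 of 6. The share of all protein-coding genes was not counted in these settings. Of the 22, 20 had a summit in the gene or within 10 kb, beside 71.7%.

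Among the ligands and their processing, Krn, a ligand related to Spitz, had a start summit 89 bp away at rank 678. S, the gene of Star, which escorts Spitz through the cell, had one 30 bp away at rank 5885 and a much stronger one in its body at rank 296. The rhomboid family genes ru and stet had none within 500 bp, although their closest summits lay at 532 and 518 bp. grk, the ligand of the ovary, had no thresholded summit in the gene or 10 kb around.

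In the cytoplasmic relay, 6 of 10 genes had a start summit. They were Ras85D, the Ras gene (100 bp, rank 1077), dos, an adaptor gene (115 bp, rank 2134), csw, a phosphatase gene (48 bp, rank 2419), drk, the gene of the Grb2-like adaptor (127 bp, rank 4919), and the scaffold genes cnk (112 bp, rank 5447) and ksr (29 bp, rank 5656). Only the first 3 were supported by all 3 replicates at the limit of 6253. Raf, the kinase gene, had no start summit but 12 thresholded summits in its 48405 bp, the strongest at rank 36 and 2265 bp from its own start. rl, the MAP kinase gene, had none in its 54466 bp or 10 kb around.

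Among the nuclear factors, 3 of 4 genes had a start summit. edl, a regulator of the Ets factors, had one at 158 bp (rank 1200), cic, a repressor gene, at 321 bp (rank 2719), and aop, the Yan repressor gene, at 346 bp (rank 4732). pnt, the Ets activator gene, had none at a start but 9 in its body, the strongest at rank 758. Of the 3 negative regulators, only Cbl, a ubiquitin ligase gene, had a start summit, at 25 bp and rank 5961. kek1 and Gap1, the latter annotated as RasGAP1, had none within 500 bp.

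**Figure D4:**
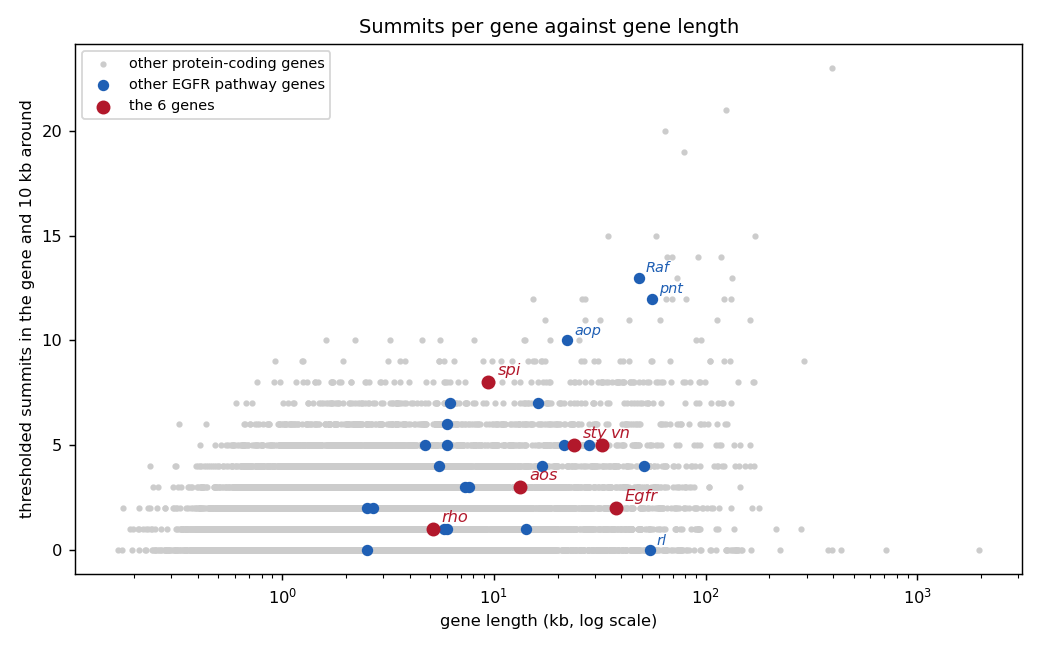
Thresholded summits in each protein-coding gene and 10 kb around it, against gene length in kb on a log scale. Red points are the 6 genes, blue points the 22 other pathway genes and grey points all other protein-coding genes. spi has 8 and Egfr 2, and Raf, pnt and aop have 13, 12 and 10.

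Set against all protein-coding genes by the count in the gene and 10 kb around, the positions of the 6 genes depended on the window. At least 8 summits were found at 1.2% of protein-coding genes, at least 5, the count of vn and sty, at 8.9%, at least 3, the count of aos, at 30%, and at least 2, the count of Egfr, at 48.7%. The median was 1, which was the count of rho. These percentages are for 10 kb only and take no account of gene length or of how close neighbours lie. With 5 kb on either side spi had 5 summits and sty 3. When each summit was given to the nearest protein-coding start instead, spi had 4, vn 1 and Egfr 1, and sty had 5.

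The lists behind these values held 6253 thresholded peaks, 30000 relaxed pooled peaks, and 30000, 22475 and 30000 relaxed peaks for replicates 1, 2 and 3. A shorter relaxed list leaves fewer weak summits to be found in replicate 2. Read depth was not given in the sources used here, so no limit of detection can be set for the starts at which no summit was called.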

How the data were processed

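ChIP-seq peak lists of 3 replicates of 1 group were used, on dm6. Per the deposited listings of files, relaxed lists, which include background, were made from the alignments and a control file, for each replicate and for the pooled replicates, ahead of filtering by irreproducible discovery rate (IDR), and the thresholded list came from that filter. Which aligner, peak caller and IDR limit were used, and the read depth, is not given in the sources used here. The signal per peak is as deposited by the authors, on an undefined scale, and only served to rank peaks within lists. A −log10 q-value, also deposited by the authors, has a single value throughout the thresholded list and was not used. The summit offset is as deposited. The thresholded peaks were the first 6253 of the pooled list, so both share ranks. Peaks on dm3 were not analysed here.

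Gene models were Ensembl release 115 (BDGP 6.54), and bases were read from the RefSeq genome of the same release. Of 13944 symbols shared with RefSeq, 13943 had the same coordinates. Gap1 was matched by synonym to RasGAP1. Coordinates are 1-based. A summit was at a start within 500 bp of any annotated start of the gene. A replicate supported a peak if 1 of its first 6253 peaks overlapped it by at least 1 bp, and its rank is that of the overlapping peak with the nearest summit. Words were matched within 50 bp of the summit. Counts are descriptions, set beside the same over all protein-coding genes. No test was made, since there is 1 group. Named were all 6 genes with all their thresholded summits, and of 22 other pathway genes those with a start summit and the 2 with most in the body. ru, stet, grk, rl, Gap1 and kek1 were named besides, after their values were seen. The genes and lists were chosen with earlier results of these data known. Counting was tested on simulated data. Python 3.11.15, pandas 2.3.3 and numpy 2.4.6 were used.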

Additional observations from a re-analysis of the deposited data

How the results depend on the processing

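Of 50 alternative values of the main counts, 40 stayed within 1.5 times. The 6 genes with a start summit numbered 2, and 1 with 250 bp, 4 with 1000 bp and 4 with 2 times as many pooled peaks. The share of all protein-coding genes was not counted in these alternative settings. The 24 summits became 15 in the stronger part of the list (ranks up to 3126) and 47 with 2 times as many pooled peaks. By the nearest-start rule, with no limit of distance, the 6 genes had 15 summits, of which 13 are among the 24 and the others lie farther away, and the 12 pathway genes with a start summit became 6 in that stronger part. Of the 24 windows, 4 held a word, 2 in the stronger part and 10 within 100 bp of the summit. With each replicate left out in turn, using peaks shared by the other 2 (5133, 4948 and 4579 without replicates 1, 2 and 3), the genes with a start summit stayed at 2, the genes with a body summit were 5 each time, as were those with one within 10 kb, the summits ranged from 19 to 21, the peaks found in the remaining replicates from 18 to 20 and the pathway genes from 7 to 10. The gene lost each time was rho, whose count fell to 0 without any 1 replicate and in the stronger part. In the stronger part vn and Egfr each had 1 summit. The causes were not tested. No paired analysis was possible because there is 1 group. Read depth is unknown, so a missing summit does not show that Dpn was absent.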
